A study of Mus musculus with 36 samples.

Results

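The lungs of male mice that received the oil dispersant Corexit 9500 were compared with those of male mice that received saline (control). The members were the 3 male mice labelled Corexit 9500 and the 3 male mice labelled saline, 6 of the 36 samples of the series, and every gene of the table for male mice was used. That table held 18291 genes with a name of their own, and 15116 of them had enough counts to be tested.

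All 6 animals were wild-type C57BL/6 male mice, 8 weeks old when dosing began. On days 0, 7 and 13 they received 50 µL of a fraction diluted to 0.1 of its strength, or saline alone, and RNA of the left lung was sequenced on day 14. The dispersant had been stirred at 1 part to 40 parts of Hank's balanced salt solution. The labels name intratracheal instillation of a water-accommodated fraction, and the paper names oropharyngeal aspiration and calls the same fraction saline-accommodated. The other groups of male mice, 3 each, received MC252 crude oil, Corexit 9527, 9500+oil or 9527+oil on the same days, and female mice were handled as a separate set.

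Corexit 9500 is a mixture of surfactants and solvents that breaks oil into small droplets. Lung epithelium that meets an irritant is known to respond in several ways. Airway cells can turn into goblet cells that secrete gel-forming mucins, an outcome driven above all by the type 2 cytokines IL-4 and IL-13 through the factor STAT6. Surviving epithelial cells can spread, switch on stress keratins and squamous proteins, and divide to replace those that were lost. Dividing cells express a fixed program in which genes for DNA replication come on before genes for the mitotic spindle. Interferon-induced genes, such as those for the guanylate-binding proteins and immunity-related GTPases, are kept at a basal level in healthy lung by tonic interferon signaling.

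Between 27119482 and 29166828 reads were counted on genes in the Corexit 9500 mice, and between 19302528 and 22296844 in the saline mice, so the groups did not overlap in depth. Reads of the mitochondrial genome took 5.27 to 7.38% of the counts in the 6 libraries. The tissue label was borne out by abundant transcripts of alveolar type 2 cells (Sftpc, 12040 to 13270 CPM, which are counts scaled to library size), club cells (Scgb1a1, 13500 to 21140 CPM), alveolar type 1 cells (Ager, 1706 to 2343 CPM) and endothelium (Pecam1, 834 to 1153 CPM). Of the 24 marker lists for cell types and airway states whose levels were summed, 1 had a marker listed at 0 in all 6 mice, the squamous gene Sprr2a3.

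Across all 15116 genes tested, 1 gene changed at an adjusted p under 0.05, which is 0.00662% of those tested. At an unadjusted p under 0.05, 604 genes (4%) had a higher and 356 genes (2.36%) a lower level in the Corexit 9500 mice. For 966 genes (6.39%) every Corexit 9500 mouse was above every saline mouse, and for 803 genes (5.31%) every Corexit 9500 mouse was below. The median log2 fold change of all genes was -0.009. DESeq2, used as a second tool on the same 6 libraries, put 33 genes higher (0.21% of the 15718 it adjusted) and 10 lower (0.0636%) at an adjusted p under 0.05, and in all 43 the groups did not overlap. Its calls took in Prg4, Retnla, Nnat, Gbp4, Clca3, Sprr1a and Cyp1a1. They also took in Gm6851, named after its values were seen and too low for the naming rule, which measured 0.795, 2.52 and 3.07 CPM in saline mice and 0 in all 3 Corexit 9500 mice (adjusted p = 3.4e-06 by DESeq2 and 0.47 by edgeR). At the depth of these libraries a count of 0 allows a level of up to 0.111 CPM, for counting error only, and Gm6851 was also at 0 in 8 of the 12 other treated male mice. The unadjusted counts moved by over 1.5 times with the mice that were included. Without saline mouse 3 they were 401 higher and 337 lower, without Corexit 9500 mouse 7 they were 356 and 228, without mouse 8 they were 281 and 186, and without mouse 9 they were 941 and 597.

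The gene that changed was Prg4, on the minus strand at chr1:150449412-150466165 of GRCm38. It encodes lubricin, a mucin-like glycoprotein that coats and lubricates joint and serosal surfaces. Prg4 measured 2.64, 2.47 and 2.80 CPM in the saline mice and 10.6, 15.9 and 13.1 CPM in the Corexit 9500 mice. The lowest treated mouse thus lay far above the highest control, and the group means were 13.2 ± 2.65 and 2.63 ± 0.166 CPM (SD, n = 3 mice each). Prg4 rose by 2.32 on the log2 scale (SE 0.195, 95% interval 1.88 to 2.76, adjusted p = 0.0156 by edgeR). Its fold change stayed between 2.17 and 2.46 in all 14 alternative fits, but its adjusted p passed 0.05 in 6 of them. These were the fits without saline mouse 1 (0.108), saline mouse 2 (0.0918), saline mouse 3 (0.102) or Corexit 9500 mouse 8 (0.0686), limma voom (0.148) and the fit of all 6 male groups together (0.539). In bulk lung RNA, more cells of a type and more RNA per cell cannot be told apart, here or in any result that follows.

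The saline mice held the 3 lowest Prg4 levels of the 18 male mice. Oil gave 14.0, 11.9 and 11.0 CPM, 9527+oil gave 21.7, 10.3 and 12.2 CPM, and 9500+oil gave 3.54, 13.8 and 17.6 CPM. Corexit 9527 mice were lower, at 4.81, 8.33 and 5.17 CPM. Female saline mice held 11.7, 8.45 and 134.6 CPM and female Corexit 9500 mice 7.89, 14.9 and 16.6 CPM, so the female groups overlapped. The value of 134.6 CPM is that of female saline mouse 3, a library that stood apart with 45.1% of its counts from the mitochondrial genome. The oil, Corexit 9527 and mixture groups share their saline mice with the comparison above and are no independent measure of it.

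Among the other genes with the smallest p values, none of which passed the adjusted threshold in edgeR, the higher ones included secreted products of type 2 airway responses. Only genes whose groups did not overlap were taken, so their separation was a condition of the choice. Retnla (chr16:48842551-48844461, plus strand) encodes resistin-like molecule alpha, which IL-4 and IL-13 induce in macrophages and airway cells. It measured 29.4, 23.6 and 32.6 CPM in the saline mice and 159.6, 305 and 104 CPM in the Corexit 9500 mice. The difference was 2.73 on the log2 scale (SE 0.352, adjusted p = 0.247). All 3 treated mice were above all controls, with the highest level in mouse 8. Clca3 (chr3:145003817-145032776, minus strand), listed in current annotation as Clca1 and known as gob-5, is a secreted goblet cell protein. Its level was 14.4, 12.9 and 20.04 CPM in saline and 51.1, 240.9 and 82.5 CPM in Corexit 9500 mice, a log2 difference of 2.98 (SE 0.523, adjusted p = 0.609). Mouse 8 was again the highest. Without mouse 9, edgeR gave 6 genes at an adjusted p under 0.05, with Retnla (0.0162) and Sprr1a among them beside Prg4, Gm10240, Gm13370 and Nrbp2. Without mouse 8, the log2 difference was 2.08 for Clca3 and 2.21 for Retnla.

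The next genes had other roles. Sprr1a (chr3:92483952-92485895, minus strand) encodes a small proline-rich precursor of the cornified envelope, a structure of squamous cells rather than of healthy airway. It measured 1.39, 1.47 and 1.31 CPM in saline mice and 20.2, 11.6 and 3.33 CPM in Corexit 9500 mice, a log2 difference of 3.07 (SE 0.577, adjusted p = 0.609). Mouse 7 held the highest and mouse 9 the lowest treated level, and the groups did not overlap. The Sprr genes form a family of related sequences, so their estimated counts carry some uncertainty. S100a14, an epithelial calcium-binding protein, was at 2.83, 1.99 and 1.76 CPM in saline and at 9.78, 6.47 and 4.58 CPM in Corexit 9500 mice (log2 difference 1.66, SE 0.324). Macc1, a regulator of the MET receptor, was at 5.37 to 6.28 CPM and 9.59 to 18.1 CPM (log2 difference 1.18, SE 0.234). Alox15, the 12/15-lipoxygenase of macrophages and eosinophils, was at 1.99 to 2.71 CPM and 4.49 to 8.80 CPM (log2 difference 1.45, SE 0.285). The remaining higher genes named by rule were Nnat, a small imprinted membrane protein (0.87), Nnt, the mitochondrial transhydrogenase (0.67), and the cell division genes Cep55 (1.18), Ube2c (1.07) and Knstrn (1.16). The groups were apart in all of these genes because the naming rule took only genes without overlap.

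**Figure D1:**
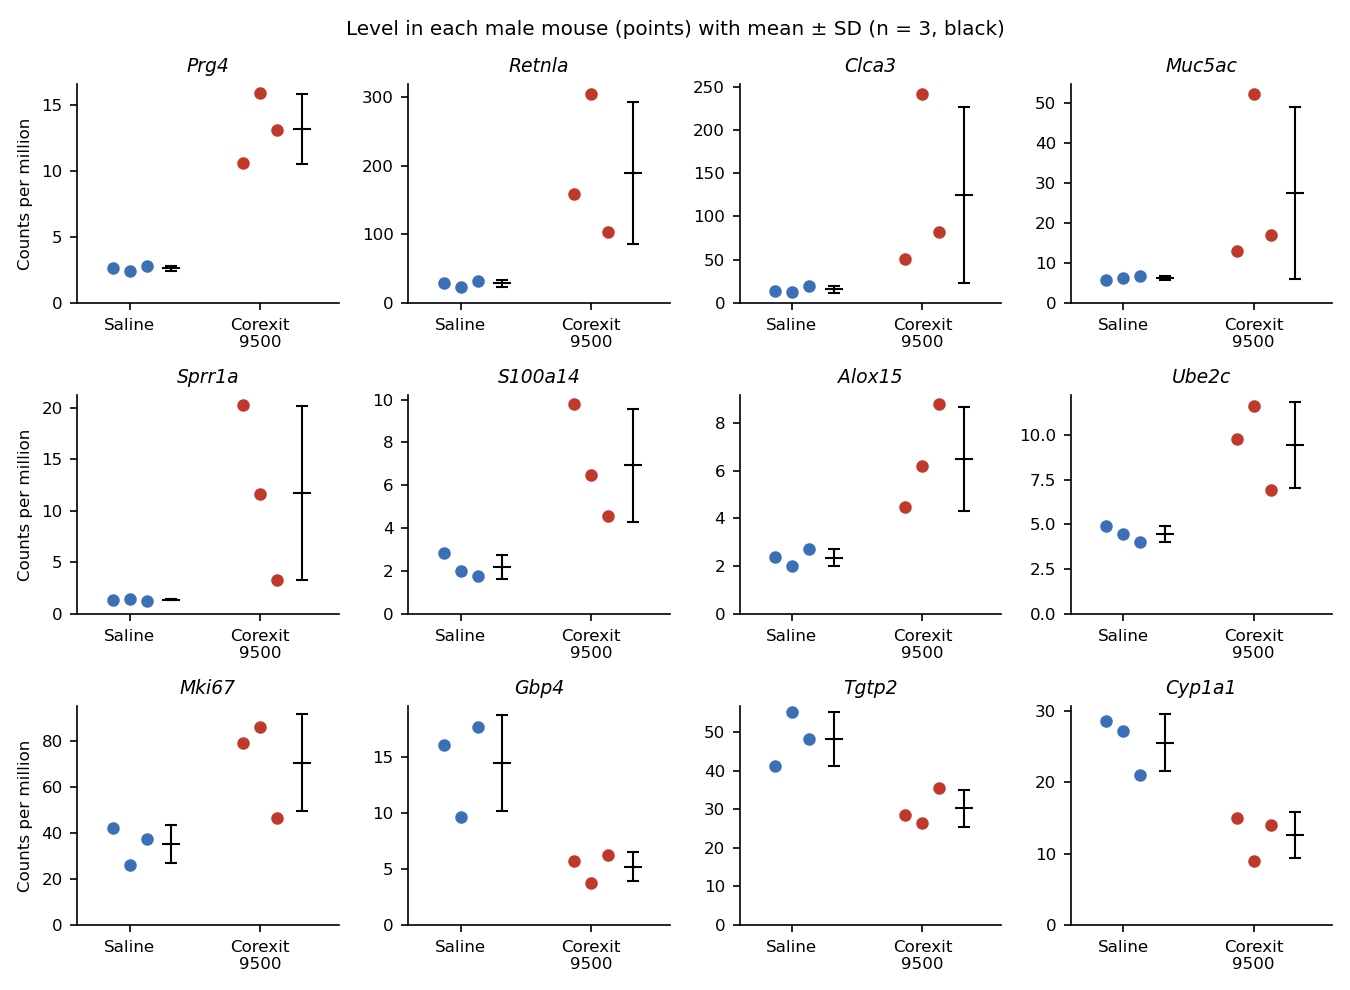
Level of 12 genes in each male mouse, in CPM on a linear axis from 0, with the 3 saline mice in blue, the 3 Corexit 9500 mice in red and black bars for mean ± SD (n = 3). The groups do not overlap in any panel, which the naming rule required of all but Muc5ac and Mki67. Prg4 goes from 2.63 to 13.2 CPM on average, and mouse 8 stands out in Retnla, Clca3 and Muc5ac.

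The lower genes named by rule, again taken only where the groups did not overlap, had log2 differences between -1.47 and -0.39. Gbp4 (chr5:105115767-105139586, minus strand), a guanylate-binding GTPase induced by interferon, measured 16.1, 9.60 and 17.7 CPM in saline mice and 5.69, 3.72 and 6.23 CPM in Corexit 9500 mice. The log2 difference was -1.47 (SE 0.269, adjusted p = 0.609) and the groups did not overlap. Gbp4 is listed at 0 in 1 oil mouse and 1 Corexit 9527 mouse, and it shares much sequence with the other Gbp genes. Tgtp2, an interferon-induced GTPase of the immunity-related family, was at 41.1, 55.1 and 48.2 CPM against 28.6, 26.6 and 35.6 CPM (-0.67, SE 0.145). The very large interferon-inducible GTPase Gvin1 was at 121, 121 and 130 CPM in saline mice and at 93.5, 100.1 and 90.1 CPM in Corexit 9500 mice (-0.39, SE 0.0827). Its neighbour and near copy Gm4070 was at 108, 126 and 112.2 CPM against 81.4, 79.2 and 74.3 CPM (-0.56, SE 0.0916). Reads of Gvin1 and Gm4070, and of Tgtp2 and Tgtp1, may be shared between the copies.

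Cyp1a1 (chr9:57687928-57703824, plus strand), the cytochrome P450 that the aryl hydrocarbon receptor (AhR) induces in response to polycyclic aromatic compounds, was also lower. It measured 28.6, 27.2 and 21.0 CPM in saline mice and 15.0, 8.99 and 14.0 CPM in Corexit 9500 mice (-1.01, SE 0.203, adjusted p = 0.609). The groups did not overlap, and female mice held 1.18 to 3.96 CPM in both groups. Of 41 AhR and xenobiotic metabolism genes tested, 11 were higher and 30 lower, with 2 at an unadjusted p under 0.05 in each direction (4.88%, beside 4% higher and 2.36% lower of all genes) and a median log2 fold change of -0.13. Adh1, an alcohol dehydrogenase, was higher in the Corexit 9500 mice (122 to 129 CPM against 145 to 160 CPM), and so was Gsto1, a glutathione transferase (89.7 to 111.6 CPM against 114 to 126 CPM). The remaining lower genes named by rule were Gm684, listed in current annotation as Colca2 (-1.17), Cnot1, the scaffold of the CCR4-NOT deadenylase (-0.47), Vgll3, a cofactor of TEAD factors (-0.44), Gtf2ird1, a transcription factor of the TFII-I family (-0.83), the zinc finger gene Zfp131 (-0.47), the sorting nexin Snx13 (-0.40) and the TRAPP tethering subunit Trappc8 (-0.71). Adjusted p values of all these lower genes lay between 0.593 and 0.688.

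**Figure D2:**
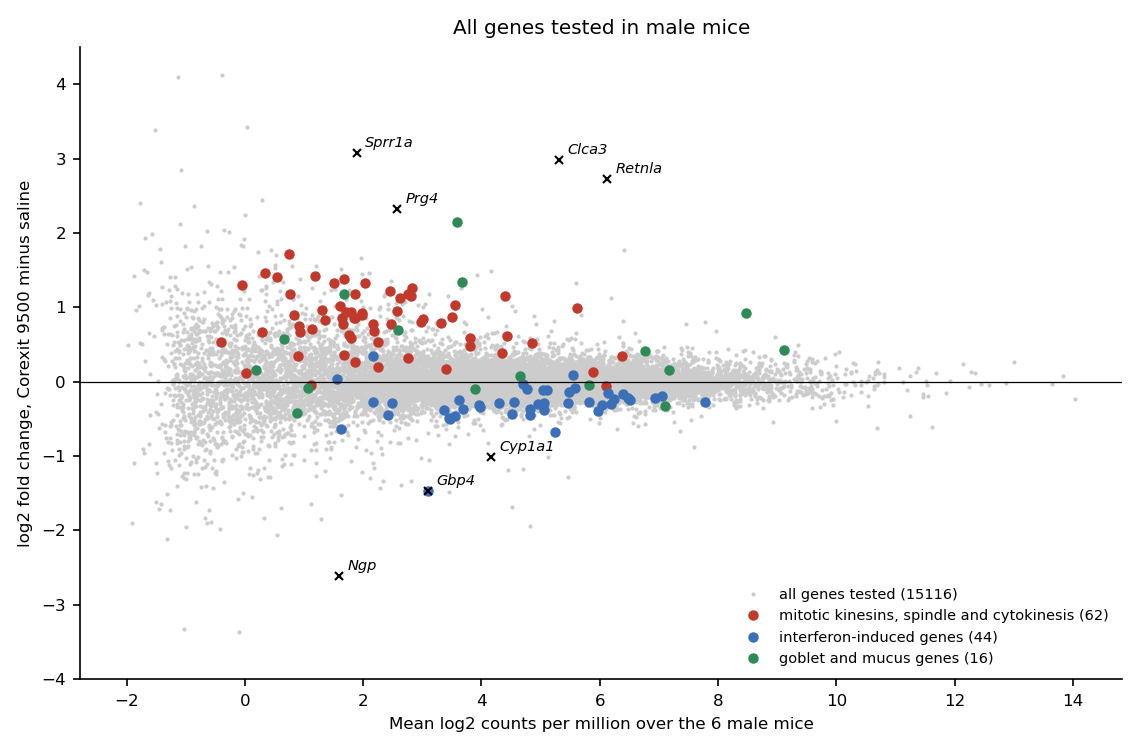
Log2 fold change (Corexit 9500 minus saline) of the 15116 genes tested against their mean log2 CPM over the 6 male mice, with 1 gene outside the plotted range. Red points (62 mitotic genes) lie mostly above 0, blue points (44 interferon-induced genes) mostly below 0 and green points (16 goblet and mucus genes) on both sides, while black crosses mark 7 genes given in the text.

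The promoters of 6 genes are shown because they carry the short sequences that transcription factors of these programs are known to read. Each is the 250 bases before the RefSeq transcription start on GRCm38.p6, written on the strand of the gene, with the motif in capitals wherever it occurs on either strand. Ube2c (chr2:164769679-164769928, plus strand) and Cdc20 (chr4:118437344-118437593, minus strand) show the CCAAT box and the letters TTTGAA, the core of the cell cycle homology region. In Ube2c a pair of CCAAT matches on opposite strands overlap.
Ube2c: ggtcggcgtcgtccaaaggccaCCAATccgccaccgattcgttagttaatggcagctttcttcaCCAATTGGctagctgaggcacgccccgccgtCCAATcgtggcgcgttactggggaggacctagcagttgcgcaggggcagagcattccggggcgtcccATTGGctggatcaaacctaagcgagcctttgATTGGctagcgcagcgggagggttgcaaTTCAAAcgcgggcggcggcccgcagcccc
Cdc20: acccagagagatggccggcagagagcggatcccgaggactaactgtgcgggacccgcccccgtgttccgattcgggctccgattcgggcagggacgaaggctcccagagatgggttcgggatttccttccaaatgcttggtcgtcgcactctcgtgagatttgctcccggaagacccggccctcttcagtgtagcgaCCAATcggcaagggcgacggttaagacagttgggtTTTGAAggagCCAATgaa
Irgm1 (chr11:48871421-48871670, minus strand) and Tgtp2 (chr11:49064213-49064462, minus strand) show TTTC followed after 2 bases of any kind by TTTC, the core of the interferon-stimulated response element, and Tgtp2 also TTCNNNGAA, the interferon gamma activated site. Both matches of Irgm1 overlap each other.
Irgm1: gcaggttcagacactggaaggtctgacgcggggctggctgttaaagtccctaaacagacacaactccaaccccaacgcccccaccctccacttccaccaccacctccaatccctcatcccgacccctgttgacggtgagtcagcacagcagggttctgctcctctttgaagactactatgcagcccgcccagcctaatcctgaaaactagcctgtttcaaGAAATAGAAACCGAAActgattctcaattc
Tgtp2: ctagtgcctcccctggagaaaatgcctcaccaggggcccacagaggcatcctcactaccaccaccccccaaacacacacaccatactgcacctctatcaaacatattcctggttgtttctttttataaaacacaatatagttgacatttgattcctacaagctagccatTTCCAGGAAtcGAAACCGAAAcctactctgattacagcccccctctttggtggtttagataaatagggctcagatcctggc
Retnla (chr16:48842359-48842608, plus strand) shows TTC followed after 4 bases of any kind by GAA, the spacing that STAT6 prefers, and Cyp1a1 (chr9:57697363-57697612, plus strand) shows GCGTG, the core read by the AhR.
Retnla: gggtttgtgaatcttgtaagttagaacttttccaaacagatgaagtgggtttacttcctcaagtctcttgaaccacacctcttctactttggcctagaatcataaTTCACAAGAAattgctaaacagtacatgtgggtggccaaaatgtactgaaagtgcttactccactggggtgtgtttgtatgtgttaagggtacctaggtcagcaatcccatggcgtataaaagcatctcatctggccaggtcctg
Cyp1a1: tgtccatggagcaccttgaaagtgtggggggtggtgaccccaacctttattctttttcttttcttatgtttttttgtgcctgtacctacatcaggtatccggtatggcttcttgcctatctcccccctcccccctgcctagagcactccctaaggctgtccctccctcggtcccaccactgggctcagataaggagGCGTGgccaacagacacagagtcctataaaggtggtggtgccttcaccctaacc

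Such short motifs are common, so the shares matter more than any match. Over the windows of 300 bases around the start of 27025 RefSeq genes, CCAAT was found in 37.9%, TTTGAA in 18.1%, the spaced TTTC pair in 3.49%, TTCNNNGAA in 8.47%, TTC and GAA with 4 bases between them in 6.99% and GCGTG in 32.5%, on either strand. Among the 11542 genes tested that had a window, CCAAT was in 38.1%, TTTGAA in 12.4% and GCGTG in 49.2%. Among the mitotic kinesin, spindle and cytokinesis genes tested, 51 of 62 had a window, and 37 of these (72.5%) held TTTGAA and 34 (66.7%) held CCAAT. The mitotic kinase list, with Ube2c and Cdc20, held TTTGAA in 12 of 23 windows (52.2%) and CCAAT in 18 (78.3%). For replication licensing these were 7 (22.6%) and 18 (58.1%) of 31. The interferon list held the spaced TTTC pair in 22 of 34 windows (64.7%, beside 3.21% of genes tested). The STAT6 spacing shown for Retnla was in 0 of 11 goblet list windows, beside 5.37% of genes tested. Windows covered 23 of 30, 31 of 39, 34 of 44 and 11 of 16 members, so these shares describe the windows alone. A match describes the letters and not a bound site.

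Genes of the mitotic spindle and mitotic kinases and cyclins were higher nearly throughout. Of 62 genes tested for mitotic kinesins, the spindle and cytokinesis, 60 were higher and 2 lower in Corexit 9500 mice, 42 of them higher at an unadjusted p under 0.05 (67.7%, beside 4% of all genes) and none lower. The median log2 fold change was 0.84, beside -0.009 for all genes. Of 30 mitotic kinases, cyclins and regulators of the anaphase-promoting complex, 29 were higher, 19 at an unadjusted p under 0.05 (63.3%), with a median of 0.75. In both lists no member passed an adjusted p under 0.05 in edgeR, while DESeq2 called Ube2c, Kif20a, Cep55, Birc5, Troap, Ect2 and Cdc20 among others. Leaving out a mouse moved the count at an unadjusted p under 0.05 between 30 (without mouse 8) and 49 (without mouse 9) for the spindle list and between 13 and 22 for the kinases.

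The single genes show how the division signal was spread over the mice. Ube2c, the ubiquitin-conjugating enzyme of the anaphase-promoting complex, measured 4.92, 4.46 and 4.02 CPM in saline and 9.75, 11.6 and 6.91 CPM in Corexit 9500 mice. Cdc20, the activator of that complex, measured 4.23, 3.41 and 3.75 CPM against 9.22, 6.66 and 6.51 CPM (log2 difference 0.97), and Ccnb1, the mitotic cyclin B1, 2.49, 1.68 and 2.39 CPM against 5.99, 5.98 and 3.51 CPM (1.23). Every treated mouse exceeded every control for these 3 genes, which the naming rule had required of Ube2c, and mouse 9 was the lowest of the treated mice in each. Cep55, which acts at the midbody, Troap, a spindle-associated protein (log2 difference 1.72), and Ect2, the exchange factor that starts cytokinesis (0.95), followed the same order in that mouse 9 was the lowest. Mki67, the common proliferation marker, was named after its values were seen. It measured 42.4, 26.1 and 37.6 CPM in saline and 79.4, 86.2 and 46.6 CPM in Corexit 9500 mice, a log2 difference of 1.00 (SE 0.243, adjusted p = 0.688). Per mouse, the median over the spindle list lay 1.00, 1.00 and 0.38 above the saline mean in mice 7, 8 and 9, and at 0.13, -0.15 and 0.06 in the saline mice.

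Genes for preparing and copying DNA were higher by less. Of 39 genes for replication licensing, the replication fork and nucleotide supply, 37 were higher, 21 at an unadjusted p under 0.05 (53.8%, beside 4% of all genes), and the median was 0.51. Rrm2, the regulatory subunit of ribonucleotide reductase, measured 6.21, 4.88 and 6.05 CPM in saline and 12.5, 13.8 and 8.16 CPM in Corexit 9500 mice (log2 difference 1.00, SE 0.218). 2810417H13Rik, now called Pclaf, a partner of the sliding clamp PCNA, measured 3.48, 3.73 and 3.34 CPM against 9.92, 11.6 and 5.37 CPM (1.35, SE 0.281). The groups were apart in both genes. The count of 21 became 12 without saline mouse 2, 13 without saline mouse 3, 10 without Corexit 9500 mouse 7 and 12 without mouse 8. For the replication machinery itself, 30 of 35 genes were higher with a median of 0.24, and 10 of these (28.6% of the list) had an unadjusted p under 0.05. Lig1, the ligase that joins Okazaki fragments (15.96, 12.4 and 14.99 CPM against 26.4, 23.4 and 18.4 CPM, log2 difference 0.65), and Rfc5, a subunit of the clamp loader (0.70), led this list. Replication-dependent histone genes, most of whose transcripts lack a poly(A) tail, were higher in 4 of 20 and lower in 16, with a median of -0.22 (-0.14 without saline mouse 3).

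Lists of DNA repair and of p53 targets were examined next. Among 37 genes of homologous recombination and the Fanconi anemia pathway, 28 were higher, 5 at an unadjusted p under 0.05 (13.5%, beside 4% of all genes), with a median of 0.28 (0.12 without saline mouse 2), including the nuclease subunit Eme1 (1.42) and the translocase Rad54l (0.91). Among 42 genes of mismatch, base excision and nucleotide excision repair, 25 were higher and 17 lower, with a median of 0.026 that ran from -0.028 without mouse 7 to 0.076 without saline mouse 1. The 2 members at an unadjusted p under 0.05, both higher, are 4.76% of the list beside 4% of all genes tested, and were Ung, the uracil glycosylase (1.44, 1.21 and 0.948 CPM against 2.90, 3.01 and 2.11 CPM), and Neil3, a glycosylase of dividing cells (0.96). Of 31 targets of p53, the transcription factor of the DNA damage response, 15 were higher and 16 lower, with a median of -0.0023 and 3 higher and 1 lower at an unadjusted p under 0.05 (9.68% and 3.23%, beside 4% and 2.36% of all genes). These 3 were Gtse1 (1.02) and Psrc1 (0.87), which act on spindle microtubules, and Sesn2 (0.25), a stress-induced inhibitor of mTORC1. The classical targets Cdkn1a, the p21 inhibitor of cyclin-dependent kinases, and Mdm2, the ligase that degrades p53, were named after their values were seen. Cdkn1a averaged 116 ± 37.3 CPM in saline mice (SD, n = 3) and measured 97.5, 120.4 and 89.5 CPM in Corexit 9500 mice (log2 difference -0.18, 95% interval -0.68 to 0.32, but -0.41 without saline mouse 1 and 0.041 without saline mouse 2), and Mdm2 gave -0.14 (-0.33 to 0.06). Both genes overlapped between the groups.

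A further list of 11 genes had been picked for quantitative PCR from the comparison of Corexit 9527 with saline mice, and since the male saline mice are shared it is no independent evidence of direction. In the counts all 11 were higher in Corexit 9500 mice, 9 at an unadjusted p under 0.05 (81.8%, beside 4% of all genes) and 8 with no overlap (beside 6.39% of all genes), and the median log2 fold change was 1.12. Their adjusted p values lay between 0.609 and 0.974. The damage checkpoint kinase Chek1 measured 0.994, 1.26 and 1.17 CPM in saline and 3.13, 2.67 and 1.65 CPM in Corexit 9500 mice (1.11). Clspn, the adaptor of that kinase (1.46), Dtl, a replication-coupled ubiquitin ligase subunit (1.52), Ticrr, an origin-firing factor (1.56), and Fen1, the flap nuclease (0.55), did not overlap either, and neither did the chromatin assembly factor Chaf1b (0.62) and 2810417H13Rik. The groups overlapped in Uhrf1, which maintains DNA methylation (1.04), Bard1, the partner of BRCA1 (0.39, or 0.25 without mouse 8), and Chek2, the kinase of the double strand break response (0.06).

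**Figure D3:**
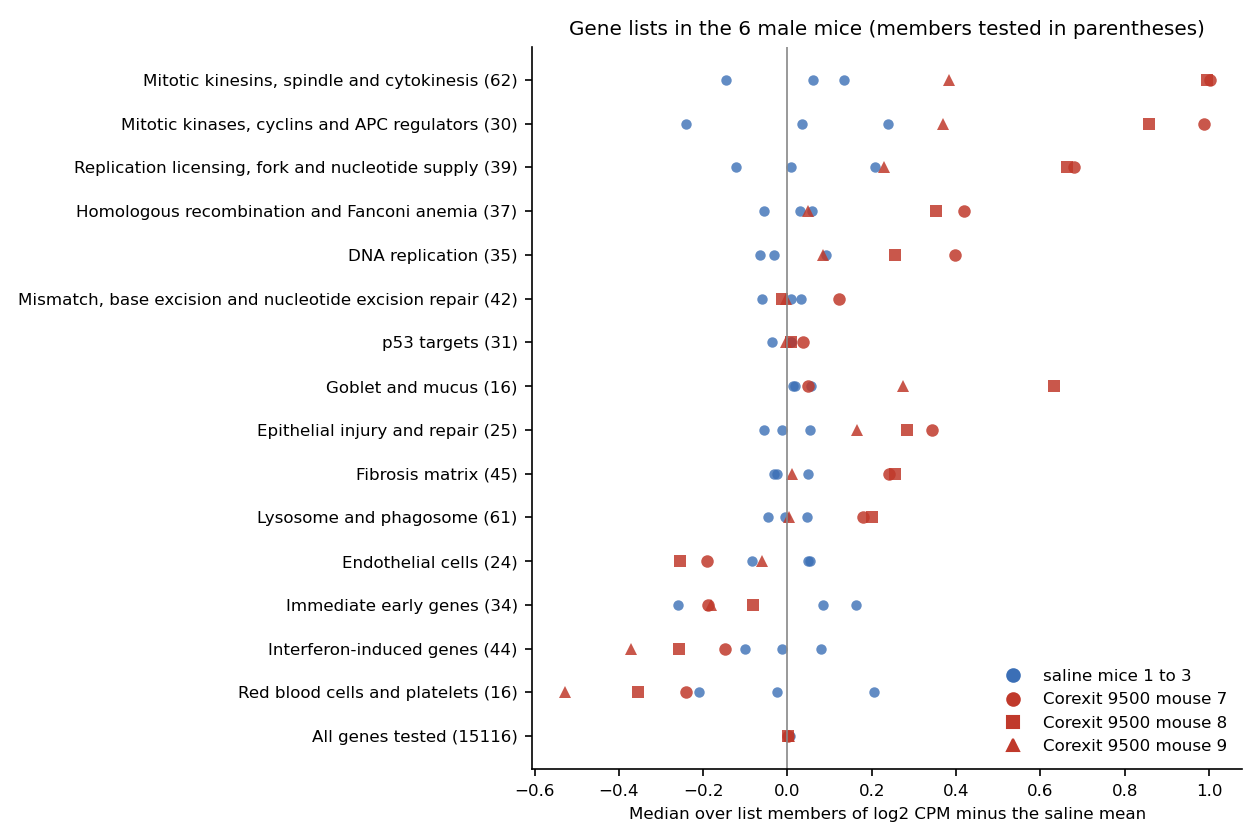
Median over the members of each gene list of log2 CPM minus the mean of the saline mice, for saline mice 1 to 3 (small blue circles) and Corexit 9500 mice 7 (circle), 8 (square) and 9 (triangle). Spindle genes lie at 1.00, 1.00 and 0.38 in mice 7, 8 and 9, interferon-induced genes at -0.15, -0.26 and -0.37, and the median of all genes is within 0.004 of 0 in each.

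Mucus genes were higher in a part of the list. Of 16 goblet cell and mucus genes, 11 were higher and 5 lower, 7 at an unadjusted p under 0.05 and all of these higher (43.8%, beside 4% of all genes), and the median was 0.29. Muc5ac, the gel-forming mucin that marks goblet cell metaplasia, measured 5.67, 6.24 and 6.64 CPM in saline and 13.1, 52.2 and 17.1 CPM in Corexit 9500 mice (log2 difference 2.14, SE 0.476, adjusted p = 0.617). The groups did not overlap, mouse 8 had the highest level, and without it the log2 difference was 1.29. Muc5b, the other gel-forming airway mucin, measured 229, 282 and 289 CPM against 288, 741 and 489 CPM (0.92, or 0.54 without mouse 8), with mouse 7 within the range of the controls. Muc1, a membrane mucin, was at 450.0 to 501 CPM and 538 to 755 CPM (0.42). Agr2, which folds mucins (1.19), the mucus protein Fcgbp (1.34) and the trefoil peptide Tff2 (0.70) were named after their values were seen, and mouse 7 was close to the highest saline mouse in all 3. Without mouse 8 the log2 difference was 0.69 for Agr2 and 0.53 for Fcgbp. The members named here were all among the 11 higher genes of the list. Over the list, the median per mouse lay at 0.05, 0.63 and 0.27 above the saline mean in mice 7, 8 and 9, and mouse 7 was within the range of the saline mice. The summed level of all 19 listed genes ran from 1218 to 1308 CPM in saline mice and was 1408, 2203 and 1570 CPM in mice 7, 8 and 9. Without mouse 8, 4 of the 16 genes were at an unadjusted p under 0.05 and the median was 0.12, and the fit of all 6 male groups also gave 4. With limma voom, 5 were higher and 1 lower at that threshold.

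The type 2 cytokines themselves were near the limit of detection. Il13 was at most 0.0998 CPM and Il4 at most 0.43 CPM in any of the 6 mice, and both were at 0 in some. Chil4, a chitinase-like protein of the type 2 response, was named after its values were seen. It measured 0.0497, 0.525 and 0.632 CPM in saline and 0.965, 10.8 and 1.54 CPM in Corexit 9500 mice (log2 difference 3.43, SE 1.03), highest in mouse 8 and with a log2 difference of 1.62 without it. CC chemokines were higher in 14 of 16 genes with a median of 0.30 (0.19 without mouse 8 and 0.52 without mouse 9), but 1 was at an unadjusted p under 0.05 (6.25%, beside 4% of all genes). This was Ccl17, a ligand of CCR4 (1.59, 2.57 and 3.03 CPM against 4.59, 3.42 and 3.54 CPM). The summed level of 20 eosinophil, mast cell and basophil markers overlapped, at 549 to 595 CPM in saline and 524 to 606 CPM in Corexit 9500 mice.

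Genes of epithelial injury and repair were higher in 19 of 25, 12 at an unadjusted p under 0.05 with none lower (48.0%, beside 4% of all genes), and the median was 0.28. Beside Sprr1a, they were led by Psca, a GPI-anchored surface antigen of epithelia (0.199, 0.21 and 0.181 CPM in saline, 1.56, 0.79 and 0.716 CPM in Corexit 9500 mice), which passed the filter on low counts only through the treated mice, and Krt8, a keratin of simple epithelium that rises in alveolar cells in transition. Krt8 measured 143, 146 and 149 CPM in saline and 224, 178 and 186 CPM in Corexit 9500 mice (log2 difference 0.42, SE 0.104, adjusted p = 0.688). Its partner Krt18 (0.40), the keratin Krt19 (0.46) and the EGF receptor ligand Areg (0.70), named after their values were seen, did not overlap between the groups. The basal cell keratins Krt5 (-0.56) and Krt15 (-0.78) did overlap. In each mouse the median over this list was above all saline mice, at 0.34, 0.28 and 0.17 against 0.05 or less, and the summed level of the 33 listed genes was 2730 to 3037 CPM against 2400 to 2513 CPM. Of the 25 genes, 21 had at least 10 counts in every mouse, and 10 of these were higher at an unadjusted p under 0.05. The count of 12 was 7 in the fit of all 6 male groups.

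Matrix and lysosome genes were mostly higher by small amounts. In a list of 45 fibrosis and matrix genes 33 were higher with a median of 0.19, and 11 of these (24.4% of the list) had an unadjusted p under 0.05. Prg4 belonged to this list, followed by Spp1, the matrix protein osteopontin (19.6, 23.6 and 23.2 CPM against 43.2, 50.9 and 28.4 CPM, 0.88), and the collagen Col6a2 (0.34). That count was 5 without saline mouse 3, 6 without Corexit 9500 mouse 7, 5 without mouse 8 and 19 without mouse 9. Of 19 matrix metalloproteinases and their inhibitors, 13 were higher, 5 at an unadjusted p under 0.05 (26.3%), with Timp1, an inhibitor, at 8.401, 9.76 and 7.58 CPM in saline and 32.5, 19.2 and 9.84 CPM in Corexit 9500 mice (1.26, or 0.76 without mouse 7), and Mmp11 (0.46) and Mmp2 (0.33) also apart. Lysosome and phagosome genes were higher in 49 of 61, 11 at an unadjusted p under 0.05 and 1 lower (18.0% and 1.64%, beside 4% and 2.36% of all genes), with a median of 0.10 (0.067 without mouse 8 and 0.16 without mouse 9) and the protease Ctsh (0.42), the macrophage glycoprotein Gpnmb (0.59) and the sterol carrier Npc2 (0.40) in front. The C1q chains of complement, made largely by tissue macrophages, gave differences of 0.59 (C1qa), 0.65 (C1qb) and 0.68 (C1qc), with the groups apart in C1qc alone, while 17 of the 34 complement and coagulation genes were higher and 17 lower. Of those 34, 5 were higher at an unadjusted p under 0.05 (14.7%, beside 4% of all genes) and none lower. The C1q chains are also the members of smallest p in the list of 22 interstitial macrophage and monocyte genes, of which 10 were higher and 12 lower with a median of -0.013. In this list 5 were higher at an unadjusted p under 0.05 (22.7%, beside 4% of all genes) and none lower. The summed level of 20 alveolar macrophage markers overlapped, at 1588 to 1859 CPM in saline and 1736 to 2036 CPM in Corexit 9500 mice. How far a change in macrophage number contributed to these values was not tested.

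Interferon-induced genes were lower nearly throughout. Of 44 tested, 3 were higher and 41 lower, 14 of them lower at an unadjusted p under 0.05 (31.8%, beside 2.36% of all genes) and 14 with every treated mouse below every control (beside 5.31% of all genes), and the median log2 fold change was -0.28. Irgm1, an immunity-related GTPase that acts in autophagy and defense, measured 40.3, 37.4 and 36.8 CPM in saline and 30.8, 27.9 and 29.0 CPM in Corexit 9500 mice (-0.39, SE 0.0926, adjusted p = 0.688). Its relative Igtp measured 27.9, 40.7 and 30.6 CPM against 25.9, 22.5 and 24.1 CPM (-0.45, or -0.28 without saline mouse 2). The groups were apart in both. The guanylate-binding proteins Gbp2 (-0.30) and Gbp5 (-0.48), named after their values were seen, were apart as well, whereas the antiviral ubiquitin-like protein Isg15 overlapped (6.66, 6.35 and 5.46 CPM against 5.59, 5.603 and 4.01 CPM, -0.28, or -0.14 without mouse 9). The median per mouse was -0.15, -0.26 and -0.37 in mice 7, 8 and 9 and 0.08, -0.01 and -0.10 in the saline mice, so the treated mouse nearest to the controls was below the lowest of them by a small margin. Leaving out a mouse put the count of 14 between 9 (without mouse 8) and 19 (without mouse 7), and the median between -0.35 and -0.22.

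Genes of blood were lower too. All 16 genes tested for red blood cells and platelets were lower, 8 at an unadjusted p under 0.05 (50%, beside 2.36% of all genes), with a median of -0.40. Hba-a1, an alpha globin gene with a near-identical copy, measured 1852, 2599 and 1753 CPM in saline and 1275, 1127 and 1619 CPM in Corexit 9500 mice (-0.63), and Alas2, the heme synthesis enzyme of red cell precursors, 114.5, 161 and 96.1 CPM against 77.3, 83.0 and 86.5 CPM (-0.59, or -0.36 without saline mouse 2). The platelet chemokine Ppbp measured 16.3, 16.9 and 19.5 CPM against 13.5, 8.46 and 10.3 CPM (-0.70). All 3 were apart, but the summed level of the 16 genes overlapped, at 7671 to 12694 CPM in saline and 5857 to 7781 CPM in Corexit 9500 mice. The count of 8 was 4 without saline mouse 2, Corexit 9500 mouse 7 or Corexit 9500 mouse 8, and 0 in the fit of all 6 male groups. How much blood remained in each lung was not recorded in the labels, and its part in the other results was not tested.

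Immediate early genes, which cells switch on within minutes of a stimulus or of tissue handling, were lower in 23 of 34 with a median of -0.20 (-0.063 without saline mouse 2), and 7 were lower at an unadjusted p under 0.05 (20.6%, beside 2.36% of all genes). Fos measured 54.0, 44.5 and 21.9 CPM in saline and 17.7, 16.9 and 19.0 CPM in Corexit 9500 mice (-1.17, SE 0.275). Egr1 measured 111, 83.8 and 29.0 CPM against 31.2, 35.8 and 24.8 CPM (-1.29), with saline mouse 3 at the level of the treated mice. Atf3 was lower by 0.63 with no overlap. The count of 7 was 3 without saline mouse 1, 13 without saline mouse 3, and 3 or 4 without Corexit 9500 mouse 7 or 8.

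Further lists are given briefly. Of 28 adipocyte and fatty acid genes 24 were lower, 5 at an unadjusted p under 0.05 (17.9%, beside 2.36% of all genes), with a median of -0.25 (-0.11 without mouse 8), including the lipase Lipe (-0.26), the mitochondrial carnitine transferase Cpt1b (-0.60) and the fatty acid receptor Cd36 (-0.30). Of 24 endothelial genes 22 were lower with a median of -0.16, but none was at an unadjusted p under 0.05, and Cldn5, Pecam1 and Emcn overlapped between the groups. Ciliated cell genes were lower in 18 of 22, with Lrrc23 (-0.29) and Hydin (-0.20) apart downward and Rsph1 (0.29, or 0.14 without mouse 8) apart upward. Alveolar type 2 genes were higher in 16 of 20 with a median of 0.14 (0.063 without mouse 8 and 0.22 without mouse 9), led by Sfta2, a secreted surfactant-associated protein (0.47). At an unadjusted p under 0.05, 5 of these 20 were higher and 2 lower (25.0% and 10.0%, beside 4% and 2.36% of all genes). Ribosomal protein genes were near balance in direction, 44 higher and 39 lower of 83, and so were nuclear genes of oxidative phosphorylation, 50 higher and 40 lower of 90. Their members at an unadjusted p under 0.05 were all higher, 5 (6.02%) and 7 (7.78%), beside 4% of all genes. The neutrophil granule gene Ngp was lower, at 5.07, 19.99 and 2.30 CPM in saline and 1.70, 2.03 and 0.716 CPM in Corexit 9500 mice (-2.62), and without saline mouse 2 its log2 difference was -1.31, while the summed level of 21 neutrophil markers overlapped (472 to 547 CPM against 355 to 675 CPM). The medians of the cell type lists other than that of red blood cells and platelets lay between -0.25 (heart muscle, -0.048 without saline mouse 2) and 0.20 (neuroendocrine, nerve and Schwann cells, 0.32 without saline mouse 3). These limits moved when a mouse was left out. The B cell median (0.11) was 0.50 without saline mouse 1 and -0.16 without saline mouse 2. Skeletal muscle (-0.026) was at 0.33 without saline mouse 1, and heart muscle at -0.45 without Corexit 9500 mouse 9.

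The Corexit 9500 mice were next compared directly with the mice that received the other dispersant, Corexit 9527, at the same dilution and days. edgeR found 0 of 15071 genes (0%) different at an adjusted p under 0.05, and DESeq2 found 8. At an unadjusted p under 0.05, 375 genes (2.49%) were higher and 298 (1.98%) lower in Corexit 9527 mice, and without Corexit 9527 mouse 12 these counts were 930 and 1047. Without Corexit 9500 mouse 9 they were 178 and 189, and without Corexit 9527 mouse 11 they were 192 and 237. All 62 spindle genes were higher in Corexit 9527 mice, 7 at an unadjusted p under 0.05, with a median difference of 0.53. Replication licensing genes were higher in 38 of 39 (8 at an unadjusted p under 0.05, median 0.46), and injury and repair genes in 21 of 25 (7, median 0.23). Interferon-induced genes were higher in 37 of 44 (6, median 0.16). All 16 genes of red blood cells and platelets were lower, none at an unadjusted p under 0.05, with a median of -0.41. Since the named genes had been picked by their level in these Corexit 9500 mice, their differences are a description. Prg4 was lower in Corexit 9527 mice by 1.11 (95% interval of the difference -1.68 to -0.54), Sprr1a was higher by 1.45 (0.16 to 2.73) with 32.8, 45.9 and 17.2 CPM, and Uhrf1 was higher by 1.02 (0.14 to 1.90). For Retnla (1.29, interval -0.10 to 2.68) and Clca3 (0.86, -0.53 to 2.26) the interval included 0. Cyp1a1 was higher by 2.91 (0.31 to 5.51), but this rested on mouse 12 with 264 CPM beside 9.11 and 12.8 CPM in mice 10 and 11.

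The mixture of Corexit 9500 with oil was compared with Corexit 9500 alone in the same way. edgeR found 0 of 15087 genes (0%) at an adjusted p under 0.05 and DESeq2 found 11, while 340 genes (2.25%) were higher and 334 (2.21%) lower in the 9500+oil mice at an unadjusted p under 0.05. The lower count was 175 without Corexit 9500 mouse 7 and 527 without mouse 9. All 62 spindle genes were lower with oil, 22 at an unadjusted p under 0.05, and their median difference was -0.49. Replication licensing genes were lower in 37 of 39 (9, median -0.35), injury and repair genes in 19 of 25 (10, median -0.22) and goblet genes in 11 of 16 (4, median -0.22). All 44 interferon-induced genes were higher with oil, 19 at an unadjusted p under 0.05, with a median of 0.30, and 15 of 16 genes of red blood cells and platelets were higher (2, median 0.50). Lists that were higher in Corexit 9500 mice than in saline mice were thus mostly lower with oil added, and a level that is extreme in the Corexit 9500 mice enters both comparisons.

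The named genes are again given as a description. Retnla measured 38.9, 38.8 and 51.9 CPM there, below all 3 Corexit 9500 mice (difference -2.13, interval -2.93 to -1.34). Clca3 measured 25.7, 12.4 and 22.7 CPM (-2.62, -3.87 to -1.38) and Sprr1a 1.53, 2.89 and 1.64 CPM (-2.55, -3.89 to -1.20). Clca3 thus overlapped with the saline mice, whereas all 3 levels of Retnla and of Sprr1a were slightly above them. Gbp4 was higher by 1.35 (0.51 to 2.20), Gvin1 by 0.31 (0.13 to 0.50), Tgtp2 by 0.45 (0.14 to 0.75) and Cyp1a1 by 0.72 (0.18 to 1.26). Prg4 differed by -0.18 with an interval of -1.23 to 0.87, too wide to say whether oil altered it. Adjusted p values of all the named genes were at least 0.977 in this comparison and at least 0.883 in that with Corexit 9527.

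**Figure D4:**
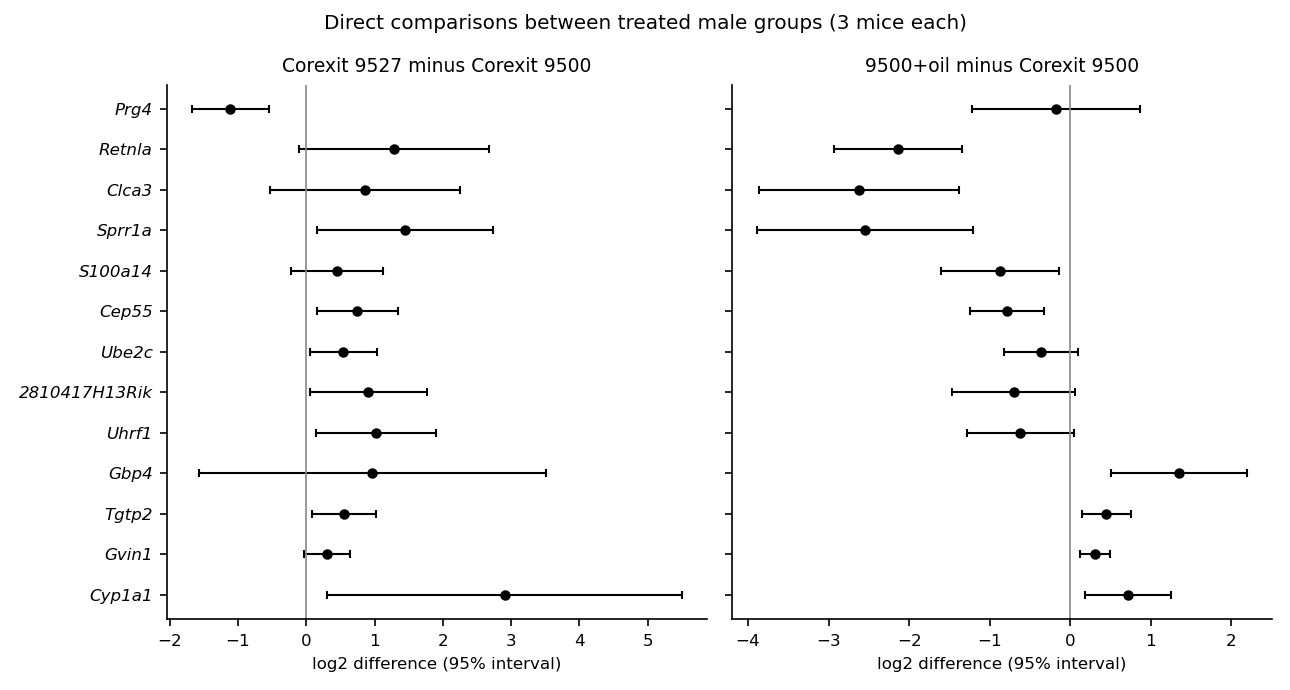
Log2 difference (points) with its 95% interval (bars) for 13 named genes between treated male groups of 3 mice each, Corexit 9527 minus Corexit 9500 on the left and 9500+oil minus Corexit 9500 on the right. Sprr1a differs by 1.45 on the left and -2.55 on the right, Retnla by 1.29 and -2.13, and no gene passed an adjusted p under 0.05 in either panel.

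Across the 6 male groups, which share the saline mice as reference, the lists took different orders. The median over the spindle genes was 1.45, 1.74 and 0.70 in Corexit 9527 mice and 1.00, 1.00 and 0.38 in Corexit 9500 mice, so these groups overlapped. Oil alone gave 0.59, 0.32 and 0.96, which overlapped with Corexit 9500 as well, whereas 9500+oil (0.30, 0.37 and 0.18) lay below all Corexit 9500 mice. For injury and repair genes, Corexit 9500 (0.34, 0.28 and 0.17) and Corexit 9527 (0.54, 0.62 and 0.34) lay above the oil, 9500+oil and 9527+oil mice, of which the highest reached 0.14. For interferon-induced genes, the Corexit 9500 mice held the lowest values of the male mice in mice 8 and 9 (-0.26 and -0.37), while mouse 7 (-0.15) was above Corexit 9527 mice 10 and 12 (-0.18 each). The goblet list ran from 0.07 to 0.75 in oil mice, from 0.21 to 0.75 in Corexit 9527 mice, from 0.06 to 0.21 in 9500+oil mice and from -0.09 to 0.54 in 9527+oil mice.

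**Figure D5:**
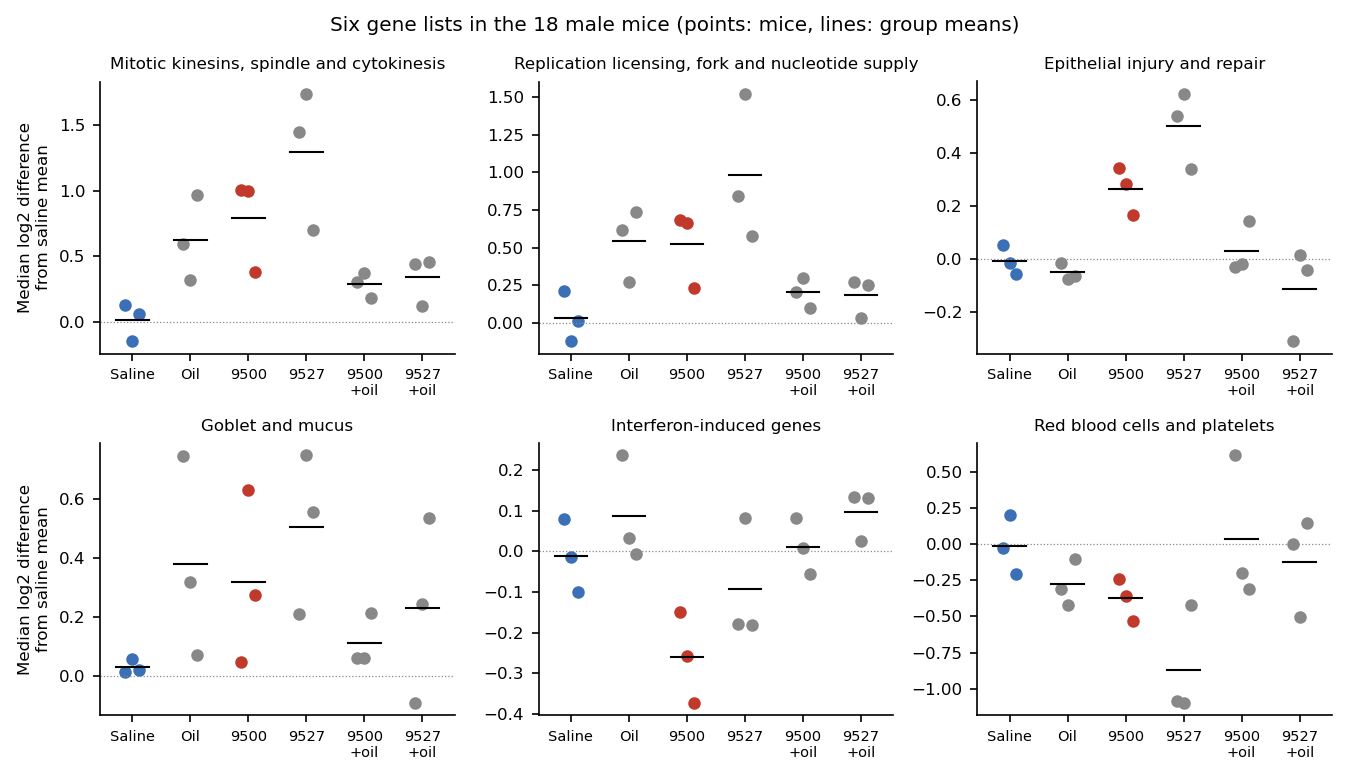
Median over the members of 6 gene lists of log2 CPM minus the saline mean in each of the 18 male mice (points) with group means (lines), saline in blue and Corexit 9500 in red. Spindle genes reach 1.00 with Corexit 9500 and 1.74 with Corexit 9527, and interferon-induced genes go down to -0.37 with Corexit 9500.

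Whether the response differed between the sexes was tested on 15422 genes of both tables, with an interaction term for sex and treatment. edgeR found 0 genes (0%) at an adjusted p under 0.05, with 76 higher and 36 lower in male mice at an unadjusted p under 0.05. Female saline mouse 3 stood apart with 45.1% of its counts from the mitochondrial genome, and without it 0 genes passed, with 169 and 138 at an unadjusted p under 0.05. Without female saline mouse 1 the unadjusted counts were 571 and 91, and without female saline mouse 2 they were 499 and 88, with 3 genes past the adjusted threshold. They were 125 and 56 without female Corexit 9500 mouse 7 and 134 and 72 without female mouse 8, and the lower count was 20 without male saline mouse 2 and 23 without male Corexit 9500 mouse 8. Prg4 differed by 4.30 (95% interval 1.58 to 7.02, adjusted p = 1.00) with all mice and by 1.93 (1.01 to 2.86) without female saline mouse 3. For Clca3 the difference was 3.54 (1.03 to 6.05) and 3.31 without that mouse. The named genes had been picked by their level in these same male mice, so their differences are a description. Sprr1a was high with Corexit 9500 in both sexes, at 73.9, 6.95 and 33.0 CPM in female mice against 1.87, 1.33 and 2.34 CPM in female saline mice, and the sex difference was -1.30 (-3.70 to 1.09). The spindle list had a median sex difference of 0.26 and the interferon list of -0.27, beside -0.07 over all genes. No member of either list was at an unadjusted p under 0.05. Since only 76 higher and 36 lower of all 15422 genes were, this absence cannot show that the lists respond alike in both sexes.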

How the data were processed

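Per the submitters' processing notes and the paper, the authors aligned paired reads of poly(A) RNA with Salmon (version not given in the sources used here) to GRCm38. The estimates were combined with tximport, which the paper describes as giving rows of transcripts, while the deposited rows carry gene names. The values deposited by the authors are estimated counts per gene, not normalized, in a table for each sex. They were rounded to whole numbers, which they already were. Rows with a repeated gene name, 4 for male mice, were not used (0.0128% of counts). Of 18291 names, 18061 (98.74%) matched GENCODE M21, the source of positions.

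The 6 libraries were compared with edgeR 4.0.16 in R 4.3.3 (TMM, filterByExpr, quasi-likelihood F-test, Benjamini-Hochberg over all genes tested), with no covariate. The direct comparisons each used the 6 mice compared, and the sex interaction used 12 mice with sex and treatment. The p values measure the spread between 3 mice a group. Standard errors are the log2 fold change over the square root of F. CPM used the TMM factors of all male libraries, and log2 CPM a prior count of 2. Depth was 19302528 to 29166828 counts. Counts of all 15 pairs of the 6 mice differed far beyond sampling noise (chi-square per gene at least 14.8). The edgeR, DESeq2 and voom steps were tested on simulated data.

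Lists were described by counts and medians, without a set test, and their per mouse values are medians of log2 CPM minus the saline mean. Of 1469 listed symbols, 1440 were found. The comparison, the lists and the alternatives were chosen with earlier results of these data known. Genes were named by rule: adjusted p under 0.05; the 12 higher and 12 lower genes of smallest p with at least 1 mean log2 CPM and no overlap; the 3 members of smallest p of each list described and genes that define a cell type; and the 11 genes of the quantitative PCR. Genes outside the rule are marked in the text, and some genes are not reported here. The sequences come from the RefSeq promoter table, in which no window was used for Prg4, Clca3 and Gbp4. Alternatives were DESeq2 1.42.0, limma 3.58.1 voom with quality weights, other size factors, upper-quartile scaling, no filter, at least 10 counts in every mouse, all 6 male groups in one fit and each mouse left out. Thinning of the counts to the lowest total was added after seeing the data.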

Additional observations from a re-analysis of the deposited data

How the results depend on the processing

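No paired analysis was possible because the male groups compared share no mouse numbers, except in the sex interaction. There, with the mouse number as a replicate block (male and female mice of a number together, added after seeing the data), 0 genes passed the adjusted threshold and 17 were higher and 19 lower at an unadjusted p under 0.05. Deviations from the group means correlated at -0.05 to 0.23 across genes between mice of a number, so the numbers were not taken to pair the mice. The 1 gene that changed became 43 with DESeq2, 0 with limma voom, 0 with all 6 male groups in one fit and 0 to 6 when a mouse was left out. It remained 1 with DESeq2 size factors, upper-quartile scaling, no filter, the filter of 10 counts and libraries thinned to the lowest total. The genes at an unadjusted p under 0.05 numbered 281 to 941 higher and 186 to 597 lower when a mouse was left out, and 483 to 671 and 277 to 428 under the other alternatives. Against Corexit 9527, DESeq2 called 8 genes, and leaving out a mouse gave 178 to 930 higher and 189 to 1047 lower. For 9500+oil, DESeq2 called 11 genes, and leaving out a mouse gave 244 to 464 higher and 175 to 527 lower. The sex interaction gave 0 to 3 adjusted calls, 51 to 571 higher and 20 to 138 lower when a mouse was left out, of which all but the fits without female saline mouse 3 were added after seeing the data.

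Of the named genes, 4 values near 0 changed sign in fits that left out a mouse. Leaving out a mouse put Chek2 between -0.15 (without saline mouse 1) and 0.20 and at -0.02 without Corexit 9500 mouse 9, Cdkn1a between -0.41 and 0.041 (without saline mouse 2), and Sftpc between -0.065 and 0.0082 (without Corexit 9500 mouse 9). The cause was not tested. The medians of the spindle (0.71 to 1.02), licensing (0.47 to 0.66), injury (0.20 to 0.35), goblet (0.12 to 0.45), interferon (-0.35 to -0.22) and red blood cell lists (-0.55 to -0.29) kept their sign, while that of the immediate early genes ran from -0.29 to -0.06. Sequencing depth was higher in every Corexit 9500 mouse than in every saline mouse, and thinning left 593 genes higher and 356 lower at an unadjusted p under 0.05.

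With 3 mice a group, gene-wise calls rest on the estimated spread, and 1 mouse can decide them. The libraries are of whole lung, so cell number and expression per cell cannot be told apart. Treatment, litter and processing order are not separated in the labels.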
